A study of Mus musculus with 36 samples.

Results

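The RNA levels of 10 genes for cleavage and polyadenylation factors, and the association of these RNAs with P-bodies and polysomes, were measured in 36 mouse RNA-seq libraries. The genes were taken by symbol. They were Nudt21, Cpsf6 and Cpsf7 of cleavage factor I (CFIm), Cpsf1, Cpsf2 and Cpsf3 of the cleavage and polyadenylation specificity factor (CPSF), Cstf1, Cstf2 and Cstf3 of the cleavage stimulation factor (CstF), and Pcf11 of cleavage factor II (CFIIm). Each of the 10 had 1 row among the 25239 genes counted in the P-body and cytoplasm libraries, the 25229 genes of the polysome libraries and the 48440 genes of the Ago2 KO libraries.

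Cleavage and polyadenylation factors form the 3′ end of messenger RNA. CPSF reads the hexamer AAUAAA and its CPSF3 subunit cuts the RNA, CstF binds GU-rich sequence downstream of the cut, and PCF11 links the reaction to the end of transcription. CFIm, built of NUDT21 with CPSF6 or CPSF7, binds UGUA motifs and favours distal sites, so its loss in cultured cells is known to shorten 3′ untranslated regions (UTRs). P-bodies are cytoplasmic granules of RNA and protein in which untranslated messages are held.

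P-bodies were sorted as particles from lysates of cells that carried GFP fused to LSM14A, a P-body protein, and were compared with cytoplasm. By the study's methods this cytoplasm was a resuspended pellet of the lysate, spun down after removal of nuclei and taken before sorting. It therefore still held the P-bodies and left out the supernatant, and levels in cytoplasm below are levels in this fraction. Naive ES cells, primed ES cells, MEFs (mouse embryonic fibroblasts, labelled as control MEFs) and Ago2 KO ES cells, which came from single sorted cells after paired CRISPR cuts, each gave 2 libraries per fraction. So did MEFs at day 3 of reprogramming, labelled control or NudT21. By the study's methods the reprogrammed MEFs carried doxycycline-inducible pluripotency factors at the Col1a1 locus with a transactivator at Rosa26, and Nudt21 was silenced by a short hairpin RNA. They also carried a Pou5f1-EGFP reporter, and both day 3 groups had received doxycycline and ascorbic acid. Polysome-bound and total RNA came from naive ES cells in which DDX6, a helicase that P-bodies require, was fused at its own locus to a degron, without or with the degrader dTAG-13 (labelled control and DDX6deg, 3 libraries each).

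The P-body and cytoplasm libraries held 6769731 to 31185874 reads, the polysome and total libraries 13308782 to 29362195 and the Ago2 KO libraries 15624401 to 17486268. Fibroblast markers summed to 33170 and 36280 CPM (reads of a gene scaled to a common library total) in MEF cytoplasm and to at most 79.2 CPM in the naive and primed libraries, whereas pluripotency markers summed to at least 754 CPM in the latter and to at most 0.93 CPM in MEFs. Naive markers were 1688 to 2081 CPM in naive and 117 to 153 CPM in primed libraries. Ago2, the target of the knockout, stood at 2.57 to 4.52 CPM in the Ago2 KO libraries. Ddx6 RNA, which the degron does not target, stood at 208 to 238 CPM in control and 186 to 199 CPM in DDX6deg total RNA. A set of 5 lung epithelial markers, at most 0.248 CPM in all other libraries, summed to 5.9 and 88.7 CPM in the MEF P-body libraries. Levels below are CPM of the library total and are compared between genes only per kilobase of exon. The 3 tables came from different pipelines and are not set against each other. Log2 fold changes below are from edgeR after TMM scaling, which sets the bulk of genes near 0, and not from the CPM. Over the 10 members the fitted value minus the log2 ratio of mean CPM had a median of 0.22 in naive enrichment, 0.25 in MEF against naive cytoplasm, -0.20 in primed against naive cytoplasm, -0.16 in day 3 against MEF cytoplasm, and -0.17 and -0.18 in control and depleted occupancy. It lay between -0.05 and 0.08 in the other comparisons.

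On the mouse genome (mm10) the 10 genes lay on 8 chromosomes. Nudt21 lay at chr8:94015496-94037031 and had, in its longest coding transcript, a 3′ UTR of 4187 bases. The transcript of Cpsf6 had a 3′ UTR of 4798 bases, the longest of the 10, and that of Cpsf1, at 79 bases, had the shortest. Over 21831 genes these values stood at the 94.2, 96 and 8 percentiles. The GC content of the transcripts ran from 38.49% in Cpsf6 to 56.44% in Cpsf1. Exons of Cstf2 shared 399 bases (7.16% of exon length) with Nox1 on the opposite strand, and overlaps of Cpsf7, Cpsf2, Pcf11 and Cpsf1 with opposite-strand genes covered at most 3.33%. Counting by strand was not stated, so reads from these stretches cannot be assigned to either gene.

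The hexamer that CPSF reads was present near the annotated 3′ end of 7 of the 10 transcripts. The last 30 bases of 4 of them (GENCODE M21 transcripts on GRCm38) are shown 5′ to 3′ with AATAAA in capitals, searched on the transcript strand only. The 4 were Nudt21, the knockdown target, Cstf3, the most enriched in naive P-bodies, and Cpsf6 and Cstf2, called higher in both knockdown fractions. Pcf11, next to Cstf3 in naive enrichment, is not among the 7 and is not shown.
Nudt21 (chr8:94015496-94015525, minus strand): gttatttcAATAAAaatatttaaaactgaa
Cpsf6 (chr10:117344673-117344702, minus strand): tcttgtattgaaAATAAAaacaaagttttg
Cstf2 (chrX:134086790-134086819, plus strand): ctgtcgtggattcAATAAAtattttaaaag
Cstf3 (chr2:104665400-104665429, plus strand): aaaggAATAAAaggacctcaaaaacatgcc
The hexamer began 22, 18, 17 and 25 bases from these 4 ends. It lay in the last 30 bases of 11223 of 21831 coding transcripts (51.4%), and was not found there in Cpsf1, Cpsf3 and Pcf11. Only AATAAA was searched, so variants of the hexamer may be present at these ends.

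The knockdown of Nudt21 was examined first. Nudt21, whose product binds UGUA as the core of CFIm, stood at 89.1 and 92.2 CPM in day 3 control cytoplasm and at 5.74 and 4.99 CPM in knockdown cytoplasm. In the P-body fraction it stood at 107 and 115 CPM in control and at 5.94 and 5.52 CPM in knockdown cells. Every knockdown library was therefore far below every control library. Nudt21 RNA fell by 4.08 ± 0.11 on the log2 scale (SE) in cytoplasm, a 16.9-fold decrease (edgeR quasi-likelihood test, adjusted p = 6.18e-14), and by 4.28 ± 0.20 in P-bodies (adjusted p = 1.5e-05).

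All 10 genes were called in knockdown cytoplasm, 7 higher and 3 lower, against 49.6% of 15990 tested genes called (24.6% higher and 25.0% lower). Their median log2 fold change was 0.33, against -0.01 over all tested genes. Nudt21, the knockdown target, is counted among the 10 and the 3 lower, and its call was set by the design. Cpsf6, a CFIm partner of NUDT21, moved most after Nudt21 itself. It stood at 124 and 118 CPM in control and at 281 and 295 CPM in knockdown cytoplasm, with no overlap, and rose 2.34-fold (log2 1.23 ± 0.07, adjusted p = 1.41e-10). Cpsf7, the alternative partner, stood at 25.3 and 25.7 CPM against 29.8 and 34.1 CPM and rose by a log2 of 0.30 ± 0.11 (adjusted p = 0.0258).

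The CPSF subunits moved in both directions in knockdown cytoplasm. Cpsf3, the endonuclease, fell by 0.44 ± 0.07 on the log2 scale, from 154 and 162 CPM to 118 and 117 CPM. Cpsf1, the large scaffold subunit, fell by 0.20 ± 0.07, from 173 and 174 CPM to 158 and 148 CPM. Cpsf2, a catalytically inactive relative of Cpsf3, rose by 0.26 ± 0.08, from 115 and 102 CPM to 137 and 126 CPM. The groups overlapped for none of these 3 genes.

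All CstF subunits and Pcf11 rose in knockdown cytoplasm. Cstf2, the subunit that binds the downstream GU-rich element, stood at 67.1 and 64.3 CPM in control and at 115 and 109 CPM in knockdown cytoplasm (log2 0.75 ± 0.07, adjusted p = 2.1e-07). Cstf1, which joins the complex as a WD-repeat subunit, rose by 0.46 ± 0.08, and Cstf3, the scaffold of CstF, by 0.35 ± 0.08. Pcf11 stood at 26.6 and 25.3 CPM against 39.9 and 38.3 CPM and rose by 0.57 ± 0.10 (adjusted p = 0.000113). Pcf11, Cstf1 and Cstf3 each had both knockdown libraries above both control libraries.

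Of 10 other core factors of the same machinery, 8 were called higher and 0 lower in knockdown cytoplasm, against 24.6% and 25.0% of all tested genes. The largest rises were those of Cpsf4 (log2 0.75), a zinc finger subunit of CPSF, Rbbp6 (0.65) and Wdr33 (0.64), which contacts the hexamer. Of 9 associated factors, Scaf4 rose by 0.46, and Ssu72, a phosphatase of RNA polymerase II, and Ints9, an Integrator subunit, fell by 1.47 and 0.42. The knockdown and control cells also differed in cell type markers. Fibroblast markers summed to 5394 and 5538 CPM in control and 1741 and 1771 CPM in knockdown cytoplasm. Pluripotency markers, some of which are also encoded by the reprogramming transgenes, summed to 324 and 332 CPM against 714 and 827 CPM. Only 2 or 3 of the 6 pluripotency markers reached 1 CPM in each of these libraries, so the sums rest on part of the list. The knockdown and this difference in markers cannot be told apart here, nor, in bulk RNA, can fewer cells of a type and less RNA per cell. With all groups of the table in a single fit Cpsf7, Cpsf1 and Cpsf2 were no longer called (adjusted p = 0.137, 0.381 and 0.0769). Cpsf7 and Cpsf1 also lost the call without replicate 1 or 2 of the control cytoplasm (log2 0.30 and 0.31 for Cpsf7, -0.20 in both for Cpsf1) or without replicate 2 of the knockdown cytoplasm (0.21 and -0.15), and Cpsf2 without replicate 2 of the control cytoplasm (0.17).

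In the P-body fraction 3 members were called on knockdown, against 18.2% of 15960 tested genes (9.39% higher and 8.83% lower). Cpsf6 stood at 130 and 124 CPM in control and 264 and 279 CPM in knockdown P-bodies (log2 1.09 ± 0.15, adjusted p = 0.00165). Cstf2 stood at 58.9 and 45.2 CPM against 122 and 113 CPM (log2 1.17 ± 0.18, adjusted p = 0.00249). Nudt21, the knockdown target, was the third, and its call was set by the design. The other 7 had log2 values between -0.30 (Cpsf3) and 0.57 (Cstf1) and were not called. Cstf1 was called without replicate 1 or 2 of the control P-bodies (log2 0.40 and 0.79), as were Cstf3 without the first (0.49) and Cpsf3 without the second (-0.42). Papola, the main nuclear poly(A) polymerase, rose by 0.81 and Ssu72 fell by 1.50. Nuclear-retained RNAs summed to 1570 and 1895 CPM in control and 672 and 673 CPM in knockdown P-bodies, and fibroblast markers to 3948 and 3494 CPM against 1141 and 1289 CPM. The part of either was not tested.

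**Figure D1:**
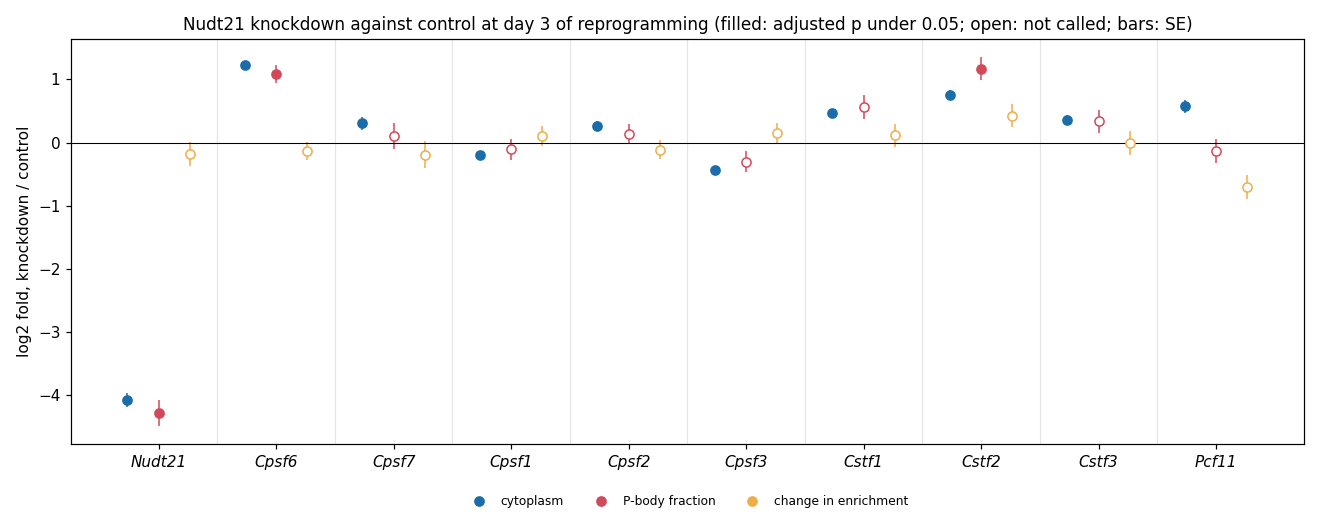
Log2 fold change of each gene in Nudt21 knockdown against control cells at day 3 of reprogramming (y axis), in cytoplasm, in the P-body fraction and as the change in enrichment between them. Points are edgeR estimates from 2 libraries per group with bars of 1 SE, and filled points were called at an adjusted p under 0.05. Nudt21 lies near -4 in both fractions, Cpsf6 and Cstf2 lie above 0 in both, and no change in enrichment was called.

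The knockdown changed the P-body enrichment of no member at the threshold. The interaction contrast over the 4 day 3 groups called 2 of 16973 genes (0.0118%). By an unadjusted p under 0.05 it would have taken 2 of the 10 members and 819 genes (4.83%). DESeq2 called 27 genes and 0 members. Pcf11 had the lowest member value at a log2 of -0.70 ± 0.19, and Cstf2 the highest at 0.42 ± 0.18. Both were called without replicate 1 of the control P-bodies (-0.82 and 0.61). The fits of the 2 fractions and the interaction share their libraries, so their values are not independent.

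Enrichment within each day 3 condition was small for most members. In control cells 0 members were called, against 0.646% of 15786 tested genes. An unadjusted p under 0.05 was reached by 3 of the 10 members and by 3899 genes (24.7%). DESeq2 called 0 members, against 2083 of the 15786 genes. Pcf11 (26.6 and 25.3 CPM in cytoplasm, 35.3 and 40.4 CPM in P-bodies) and Cpsf1 (173 and 174 CPM, then 140 and 122 CPM) had the highest and lowest log2 values, at 0.56 ± 0.16 and -0.39 ± 0.12, and neither gene's fractions overlapped. The calls changed when replicate 1 or replicate 2 of the control P-bodies was left out. The share of all tested genes called in those fits is not given here. The calls in them are therefore not read as a result about the members. Nudt21, Cpsf1, Cpsf2 and Pcf11 were called in either case (Nudt21 0.39 and 0.24, Cpsf1 -0.46 and -0.32, Cpsf2 0.26 and 0.22, Pcf11 0.68 and 0.43), Cpsf3 (-0.19) and Cstf2 (-0.50) without replicate 1, and Cpsf7 (-0.36) without replicate 2.

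In knockdown cells 2 members were called, both lower in P-bodies, against 21.9% of 15995 tested genes (9.04% higher and 12.8% lower). Cpsf7 stood at 29.8 and 34.1 CPM in cytoplasm and 23.8 and 21.8 CPM in P-bodies (log2 -0.48 ± 0.13, adjusted p = 0.0274). Cpsf1 stood at 158 and 148 CPM against 112 and 132 CPM (-0.32 ± 0.10, adjusted p = 0.048). Neither was called without replicate 1 or 2 of the knockdown cytoplasm (Cpsf7 -0.58 and -0.37, Cpsf1 -0.28 and -0.36), nor was Cpsf1 without replicate 1 of the knockdown P-bodies (-0.21) or with all groups in a single fit (adjusted p = 0.244). The difference from control cells was tested above and not called.

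**Figure D2:**
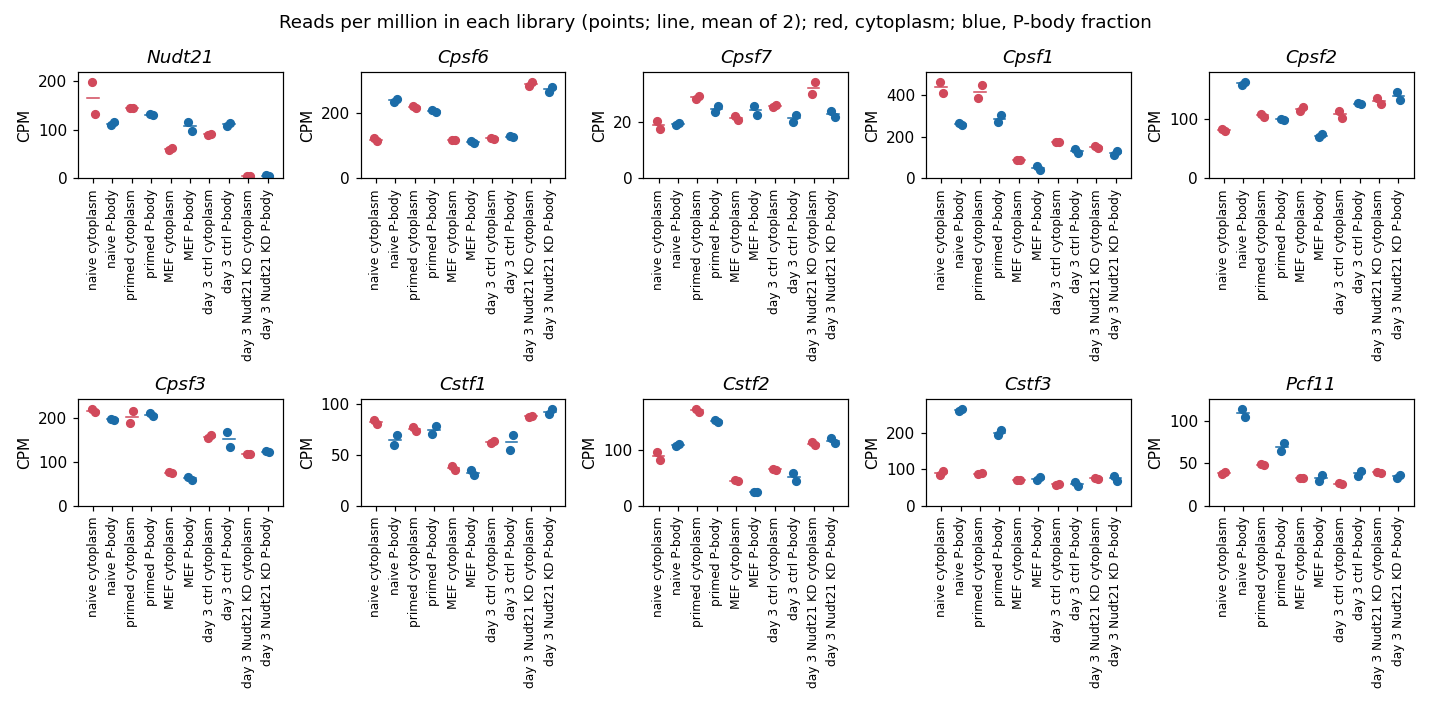
CPM (y axis, linear from 0) of each gene in the 20 P-body and cytoplasm libraries, by cell type and fraction. Each point is 1 library and each line the mean of 2, with cytoplasm in red and P-bodies in blue. Cstf3 and Pcf11 stand above cytoplasm in naive and primed P-bodies, and Nudt21 is at or under 5.94 CPM in all 4 knockdown libraries.

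P-body enrichment of the members was most spread in naive ES cells. Of the 10 genes 5 were higher and 1 lower in P-bodies than in cytoplasm, against 38.0% of 15630 tested genes called (22.6% higher and 15.4% lower). The members' median log2 enrichment was 0.38, against -0.06 over all tested genes. The nuclear-retained RNAs summed to 527 and 551 CPM in naive P-bodies and 203 and 280 CPM in naive cytoplasm, and their part in the enrichment was not tested.

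Cstf3 was the most enriched member in naive cells. Its P-body level was 260 and 267 CPM and its cytoplasm level 84.6 and 95.3 CPM, a 3.42-fold enrichment (log2 1.77 ± 0.10, adjusted p = 0.000414), and 9.1% of tested genes had a higher value. Pcf11 followed with 114 and 104 CPM against 37.1 and 39.8 CPM (3.31-fold, log2 1.73 ± 0.11, adjusted p = 0.000478). Both genes had P-body libraries far above their cytoplasm libraries.

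Cpsf6 and Cpsf2 were each enriched a little over 2-fold in naive P-bodies. Cpsf6 stood at 232 and 242 CPM against 124 and 113 CPM (log2 1.22 ± 0.12, adjusted p = 0.00123). Cpsf2 stood at 159 and 164 CPM against 83.3 and 80.5 CPM (log2 1.20 ± 0.10, adjusted p = 0.000939). Cstf2 was enriched less, at 108 and 111 CPM against 96.6 and 81.9 CPM (log2 0.51 ± 0.14, adjusted p = 0.0352). Cpsf7 (0.24), Cpsf3 (0.08) and Cstf1 (-0.13) were not called, and differences between genes were not tested. On library totals the mean of Cpsf3 was lower in P-bodies (log2 ratio of CPM -0.14).

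Cpsf1 was lower in naive P-bodies, at 266 and 257 CPM against 466 and 410 CPM in cytoplasm (log2 -0.52 ± 0.12, adjusted p = 0.0242). Nudt21 had 109 and 115 CPM in P-bodies against 200 and 133 CPM in cytoplasm, where the 2 libraries differed more than for any other member (log2 -0.36 ± 0.22, adjusted p = 0.261). Without replicate 2 of the naive cytoplasm it was called lower (-0.63). Without replicate 1 of that group Cpsf7 (0.40) and Cpsf3 (0.15) were called higher. Cpsf1 and Cstf2 lost their calls without replicate 1 or 2 of the naive P-bodies (-0.55 and -0.49, 0.53 and 0.50).

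Of 10 other core factors 5 were called higher and 1 lower in naive P-bodies, against 22.6% and 15.4% of all tested genes. Papolg, a poly(A) polymerase, had a log2 of 1.0, Rbbp6 0.96 and Fip1l1, a CPSF subunit, 0.78, and Sympk, the scaffold protein symplekin, had -0.68. Of 9 associated factors, Scaf8 was called higher (0.55) and Ssu72 lower (-0.41).

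**Figure D3:**
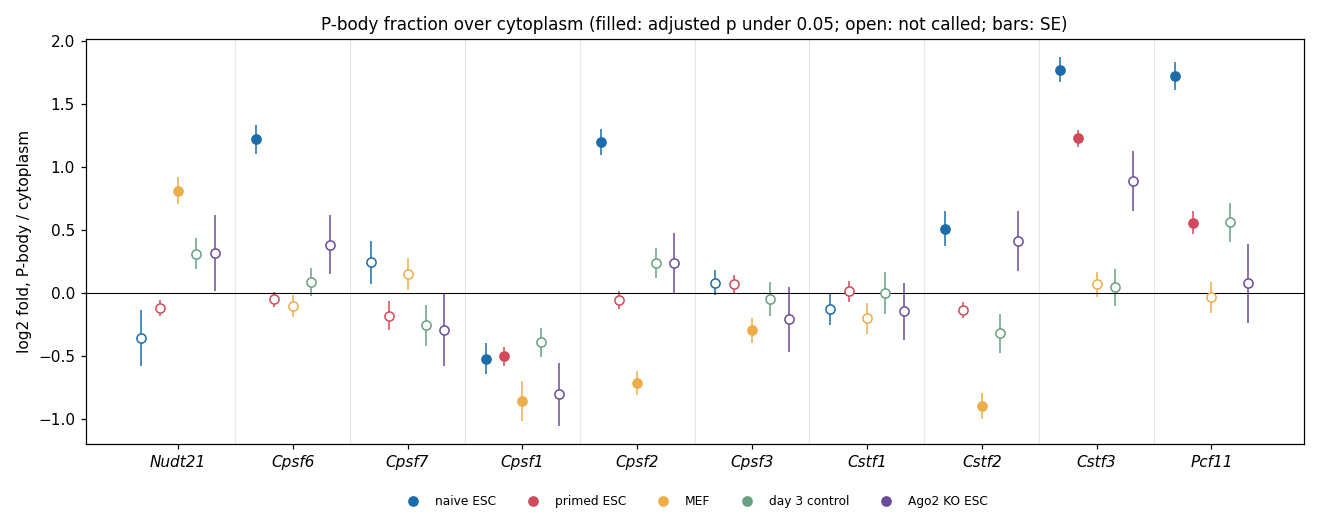
Log2 fold of P-body over cytoplasm (y axis) for each gene in naive ES cells, primed ES cells, MEFs, day 3 control cells and Ago2 KO ES cells. Points are edgeR estimates from 2 libraries per fraction with bars of 1 SE, and filled points were called at an adjusted p under 0.05. The Ago2 KO values come from a different pipeline and are not set against the other groups. Among those other groups Cpsf6 and Cpsf2 are above 1 only in naive cells. Cpsf1 is below 0 in each of them, and was not called in day 3 control cells.

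In primed ES cells 3 members were called, against 50.7% of 16177 tested genes (26.5% higher and 24.2% lower). Cstf3 was again the most enriched, at 195 and 208 CPM in P-bodies and 86.5 and 89.2 CPM in cytoplasm (log2 1.23 ± 0.07, adjusted p = 2.18e-08). Pcf11 stood at 64.6 and 73.3 CPM against 48.6 and 47.3 CPM (0.56 ± 0.09, adjusted p = 0.000297), and Cpsf1 was lower at 272 and 303 CPM against 386 and 447 CPM (-0.50 ± 0.07, adjusted p = 0.000104). The other 7 members had log2 values between -0.18 and 0.07, and their median with these 3 was -0.05 against 0.00 over all tested genes. Cpsf3 was also called (0.18) without replicate 2 of the primed cytoplasm. Among other core factors 3 of 10 were higher, with Papolg first at 0.70, and 4 were lower, with Sympk last at -0.84.

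Primed and naive cells differed in the enrichment of 5 members, all lower in primed cells, against 25.3% of 17199 tested genes called (11.4% higher and 13.9% lower). The changes in log2 enrichment were -1.13 ± 0.13 for Cpsf6 (adjusted p = 0.000647), -1.12 ± 0.12 for Cpsf2 (0.000522), -1.03 ± 0.14 for Pcf11 (0.00143), -0.51 ± 0.15 for Cstf2 (0.0389) and -0.41 ± 0.12 for Cstf3 (0.0351). Cpsf6 in P-bodies stood at 209 and 202 CPM in primed and 232 and 242 CPM in naive cells. Its cytoplasm level was 221 and 215 CPM in primed and 124 and 113 CPM in naive cells, a rise of 0.68 ± 0.12 (adjusted p = 0.00765). For Cpsf2 the P-body levels of 100 and 99.2 CPM were below the naive ones, and the cytoplasm levels of 108 and 104 CPM were not called different from naive cells. The enrichment and level contrasts share the same naive and primed libraries. Nuclear-retained RNAs summed to 683 and 629 CPM in primed P-bodies and 1104 and 879 CPM in primed cytoplasm. In naive cells, as given above, they summed to 551 and 527 CPM in P-bodies and 203 and 280 CPM in cytoplasm. The part of these RNAs in the differences was not tested. Cstf2 and Cstf3 lost their calls with the replicate block (adjusted p = 0.063 and 0.0645), and without replicate 1 or 2 of the naive P-bodies (-0.54 and -0.48, -0.43 and -0.38). They also lost them without replicate 1 of the primed P-bodies (-0.64 and -0.48) or replicate 2 of the primed cytoplasm (-0.53 and -0.38), and Cstf2 without replicate 2 of the primed P-bodies (-0.62) or replicate 1 of the primed cytoplasm (-0.60). Without replicate 2 of the naive cytoplasm, Nudt21 (0.66) and Cpsf1 (0.28) were called as well.

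In MEFs the members' enrichment took a different order. Of the 10 genes 5 were called, 1 higher and 4 lower in P-bodies, against 55.3% of 16198 tested genes (26.6% higher and 28.7% lower), and the members' median was -0.15 against 0.03 over all tested genes. Nudt21 had 116 and 98.5 CPM in P-bodies against 58.6 and 61.9 CPM in cytoplasm (1.76-fold, log2 0.81 ± 0.11, adjusted p = 0.000184), with no overlap. It was the member with the highest MEF value.

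The 4 lower members in MEF P-bodies were subunits of CPSF and CstF. Cstf2 had 24.6 and 24.5 CPM in P-bodies against 46.5 and 43.7 CPM in cytoplasm (log2 -0.90 ± 0.11, adjusted p = 9.42e-05). Cpsf1 stood at 59.1 and 40.4 CPM against 88.6 and 89.7 CPM (-0.86 ± 0.16, adjusted p = 0.00142). Cpsf2 stood at 69.4 and 75.4 CPM against 115 and 120 CPM (-0.71 ± 0.09, adjusted p = 0.000175). Cpsf3 was lower by less, at 65.1 and 58.8 CPM against 76.3 and 73.9 CPM (-0.30 ± 0.10, adjusted p = 0.0299), and lost the call without replicate 1 or 2 of the MEF cytoplasm (-0.25 and -0.31). Without replicate 1 of the MEF P-bodies Cstf1 was called lower (-0.32). Nuclear-retained RNAs summed to 4758 and 6790 CPM in MEF P-bodies and 980 and 1060 CPM in MEF cytoplasm, and lung epithelial markers to 5.9 and 88.7 CPM against at most 0.0166 CPM. The part of either in these values was not tested.

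The other factors were called in both directions in MEF P-bodies, against the 28.7% lower and 26.6% higher of all tested genes. Of 10 other core factors 6 were lower, with Cstf2t, an autosomal relative of Cstf2, at -1.46, Papola at -0.84 and Rbbp6 at -0.71, and Pabpn1, the nuclear poly(A) binding protein, was higher (0.53). Of 9 associated factors 4 were lower and 2 higher, with Scaf4 at -1.86 and Ssu72 at 1.08.

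MEFs and naive cells differed in the enrichment of 6 members, 1 higher and 5 lower in MEFs, against 41.3% of 18143 tested genes (19.8% higher and 21.5% lower) and a median over all tested genes of 0.17. Nudt21 was higher by 1.35 ± 0.26 (adjusted p = 0.00219). The lower ones were Cpsf2 (-1.72 ± 0.14, adjusted p = 2e-05), Pcf11 (-1.57 ± 0.18, 9.74e-05), Cstf3 (-1.52 ± 0.15, 3.83e-05), Cstf2 (-1.22 ± 0.17, 0.000331) and Cpsf6 (-1.14 ± 0.15, 0.000193). All 6 kept their calls in every alternative and without each library, and Cpsf1 (-0.71) and Cpsf3 (-0.53) were added without replicate 1 of the MEF P-bodies. The contrast uses the naive libraries that the primed contrast also uses.

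Cytoplasmic levels of 6 members differed between MEFs and naive cells, 1 higher and 5 lower, against 71.8% of 16871 tested genes (35.9% higher and 36.0% lower). Cpsf1 stood at 88.6 and 89.7 CPM in MEFs and 466 and 410 CPM in naive cells and was 4.13-fold lower after TMM scaling (log2 -2.05 ± 0.13, adjusted p = 0.000131) and 4.91-fold lower by mean CPM. Cpsf3 was 2.43-fold lower at 76.3 and 73.9 CPM against 221 and 213 CPM (-1.28 ± 0.11), and Nudt21 2.33-fold lower at 58.6 and 61.9 CPM against 200 and 133 CPM (-1.22 ± 0.23). Cstf1 (-0.91 ± 0.13) and Cstf2 (-0.74 ± 0.15) were lower too, and Cpsf2 was higher (0.77 ± 0.11) at 115 and 120 CPM against 83.3 and 80.5 CPM. Cstf2 lost its call without replicate 2 of the MEF cytoplasm (-0.68), whereas Cpsf6 (0.30), Cpsf7 (0.53) and Cstf3 (-0.20) gained one without replicate 1 of the naive cytoplasm. With all groups in a single fit Cpsf6 and Cpsf7 were called (adjusted p = 0.0462 and 0.0168).

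Primed and naive cytoplasm differed in 2 members, against 43.8% of 16125 tested genes (21.6% higher and 22.1% lower). Both were higher in primed cells, namely Cpsf6 (0.68 ± 0.12, above) and Cstf2, at 175 and 170 CPM against 96.6 and 81.9 CPM (0.75 ± 0.14, adjusted p = 0.0093). Neither was called without replicate 1 or 2 of the primed cytoplasm (0.67 and 0.72 for Cpsf6, 0.73 and 0.78 for Cstf2), which are the shallowest libraries. Without replicate 2 of the naive cytoplasm Nudt21 (-0.68), Cpsf1 (-0.38), Cpsf3 (-0.35) and Cstf1 (-0.37) were called lower, and without replicate 1 Cpsf7 (0.55) higher and Cstf3 (-0.27) lower. With all groups in a single fit Nudt21, Cpsf3 and Cstf1 were called (adjusted p = 0.0375, 0.0459 and 0.0471).

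In cytoplasm the order of the cell types by mean level differed between members. Nudt21 ran from 166 ± 46.9 CPM (SD, n = 2) in naive through 145 ± 0.35 in primed and 90.6 ± 2.19 in day 3 control cells to 60.3 ± 2.29 in MEFs, and only the naive and primed ranges overlapped. Cpsf1 and Cpsf3 followed the same order, also with overlap of naive and primed only, and Cstf1 did with no overlap. Cpsf6 was highest in primed cells (218 ± 4.82 CPM), and its naive level of 118 ± 7.96 CPM overlapped both the day 3 level of 121 ± 4.19 and the MEF level of 117 ± 0.09 CPM, which did not overlap each other. Cpsf2 alone among the 10 had its highest mean in MEFs (117 ± 4.01 CPM), where it overlapped day 3 control cells. Per kilobase of exon, Cpsf1 was the highest member in naive cytoplasm at 96.9 ± 8.73 CPM, followed by Cpsf3 at 81.6 ± 2.13, and Cpsf7 the lowest at 5.08 ± 0.53. In MEF cytoplasm Cpsf3 led at 28.2 ± 0.64 CPM per kilobase and Pcf11 was lowest at 4.48 ± 0.06.

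Between MEFs and day 3 of reprogramming 8 members changed in cytoplasm, 5 higher and 3 lower, against 69.3% of 16108 tested genes (35.5% higher and 33.7% lower). Cpsf3 rose most, from 76.3 and 73.9 CPM to 154 and 162 CPM (log2 0.91 ± 0.07, adjusted p = 4.15e-09), and Cpsf1 rose from 88.6 and 89.7 CPM to 173 and 174 CPM (0.80 ± 0.06). Cstf1 (0.61 ± 0.08), Nudt21 (0.43 ± 0.07) and Cstf2 (0.38 ± 0.08) rose as well. Pcf11 (-0.48 ± 0.09), Cstf3 (-0.42 ± 0.07) and Cpsf2 (-0.28 ± 0.07) fell. The 8 calls held without each library, and with all groups in a single fit Nudt21 and Cstf2 were not called (adjusted p = 0.0561 and 0.0524). These MEF libraries also enter the comparison with naive cells.

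Enrichment changed between MEFs and day 3 for Cpsf2 alone of the 10, against 14.7% of 17488 tested genes (9.59% higher and 5.13% lower). Cpsf2 was lower in P-bodies of MEFs and stood at 127 and 126 CPM in day 3 P-bodies against 115 and 102 CPM in day 3 cytoplasm, a difference in log2 enrichment of 0.996 ± 0.15 (adjusted p = 0.00365). It was not called without replicate 2 of the day 3 control cytoplasm (0.86). Nudt21 had the lowest value (-0.46 ± 0.17) and Pcf11 (0.64 ± 0.22) and Cstf2 (0.62 ± 0.20) the next highest. Nudt21 was called without replicate 1 or 2 of the day 3 control P-bodies (-0.46 and -0.57), Pcf11 without the first (0.68), Cstf2 (0.74) and Cpsf3 (0.39) without the second, and Cpsf1 (0.81) without replicate 1 of the MEF P-bodies.

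Ago2 KO cells were compared within their own table. No member was called, against 6.51% of 16808 tested genes. An unadjusted p under 0.05 was reached by 2 of the 10 members and by 4031 genes (24.0%). DESeq2 called 2 members, against 1713 of the 16808 genes. Cstf3 had 103 and 102 CPM in P-bodies against 60.1 and 48.4 CPM in cytoplasm (log2 0.89 ± 0.24, adjusted p = 0.0591), and Cpsf1 at 52.2 and 59.7 CPM against 89.8 and 100.3 CPM (-0.80 ± 0.25, adjusted p = 0.091). These were the highest and lowest members, and the fractions of neither overlapped. Both were called by DESeq2, with no filter and with the replicate block, and without replicate 1 or 2 of the cytoplasm (Cstf3 0.86 and 0.78, Cpsf1 -1.07 and -0.67). Nudt21 cytoplasm levels were 253 and 148 CPM, and the P-body levels of 260 and 244 CPM lay on both sides of the former.

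Across the 10 members log2 enrichment in naive cells was lower where the GC content of the transcript was higher (Pearson r = -0.70 over 10 genes). Over 14282 tested genes with an annotated coding transcript r was -0.58. In primed cells r was -0.44 over members and -0.33 over 14708 genes, and in MEFs -0.39 and -0.05 over 14388 genes. In day 3 control cells the values were -0.62 and -0.17 over 14214 genes, and in knockdown cells -0.34 and -0.23 over 14371 genes. In the separate table of Ago2 KO cells they were -0.82 and -0.46 over 14026 genes. Nudt21, at 42.5% GC and a log2 of -0.36 in naive cells, lay apart from Pcf11 (42.7%) and Cstf3 (42.81%), which were the most enriched. These are descriptions over genes of shared libraries and carry no p.

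**Figure D4:**
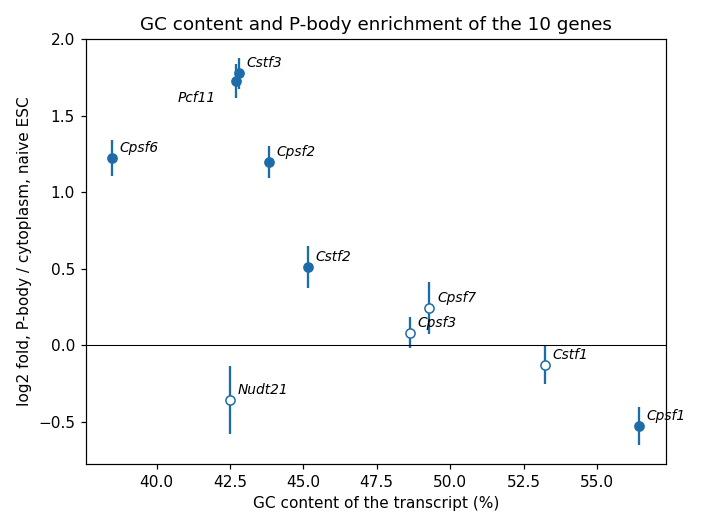
GC content of the longest coding transcript (x axis, %) against log2 fold of P-body over cytoplasm in naive ES cells (y axis) for the 10 genes. Points are edgeR estimates from 2 libraries per fraction with bars of 1 SE, and filled points were called at an adjusted p under 0.05. Values fall from Cstf3 and Pcf11 to Cpsf1, with Nudt21 apart at low GC and below 0.

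Over the 16 P-body and cytoplasm libraries without the knockdown, members that moved together belonged to different complexes as well as the same one. The log2 levels of Cpsf3 and Cstf1 had r = 0.95, those of Cstf3 and Pcf11 0.94 and those of Cpsf1 and Cpsf3 0.94. Nudt21 and Cpsf2 had the lowest value at -0.28. Of 10287 genes compared, the 3 most like Nudt21 were Gins2 (0.96), Lsm4 (0.95) and Polr2c (0.95). The points share cell type and fraction, so these values carry no p.

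In control naive ES cells 9 of the 10 members differed between polysome-bound and total RNA, 1 higher and 8 lower on polysomes, against 42.9% of 15411 tested genes (18.8% higher and 24.1% lower). Their median log2 occupancy was -0.45, against 0.02 over all tested genes. By the study's methods the libraries labelled polysome pooled the gradient fractions that contained ribosomes. Total RNA was a part of each centrifuged lysate, set aside before fractionation. Occupancy here is the polysome level over total RNA of the same cell line and treatment, compared between groups and not lysate by lysate.

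The CPSF subunits and Cstf3 had the lowest occupancy. Cpsf1 stood at 37.0, 39.7 and 36.0 CPM in polysomes and 133, 137 and 140 CPM in total RNA, 4.07-fold lower (log2 -2.02 ± 0.07, adjusted p = 8.56e-13), and 0.61% of tested genes had a lower value. Cpsf3 stood at 54.6, 54.2 and 54.2 CPM against 140.3, 142 and 132 CPM (-1.52 ± 0.06, adjusted p = 1.06e-11). Cstf3 stood at 35.6, 34.9 and 36.4 CPM against 71.4, 73.3 and 65.8 CPM (-1.15 ± 0.07), and Cpsf2 at 51.1, 47.1 and 54.9 CPM against 102, 102 and 83.4 CPM (-1.08 ± 0.09). In none of the 4 did polysome and total libraries overlap.

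Of the 10 genes, Nudt21 alone was called higher on polysomes. Nudt21 stood at 251, 262 and 254 CPM in polysomes and 192, 193 and 206 CPM in total RNA (log2 0.21 ± 0.06, adjusted p = 0.0112). Cpsf6 was lower by 0.27 ± 0.06 on that scale, and Cpsf7 had a value of 0.00 ± 0.06 at 100.1, 95.1 and 94.3 CPM against 86.6, 86.6 and 84.3 CPM. Cstf1 (-0.44 ± 0.07), Cstf2 (-0.46 ± 0.06) and Pcf11 (-0.25 ± 0.07) were lower. Nudt21 and Pcf11 lost their calls without replicate 1 or 2 of the control total RNA (0.18 and 0.19, -0.20 and -0.22), and Pcf11 without replicate 2 of the control polysomes (-0.23).

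Most of the other factors of the machinery were lower on polysomes as well, against 24.1% lower and 18.8% higher of all tested genes. Of 10 other core factors 7 were lower and 3 higher, with Sympk at -1.12, Wdr33 at -0.87 and Fip1l1 at -0.81, and with Papola at 0.36, Pabpn1 at 0.21 and Cpsf4 at 0.18. Of 9 associated factors 7 were lower, with Xrn2, the nuclear exonuclease of transcription termination, at -1.42, Thoc5 at -1.01 and Ints9 at -0.87, and Ssu72 was higher (0.29).

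**Figure D5:**
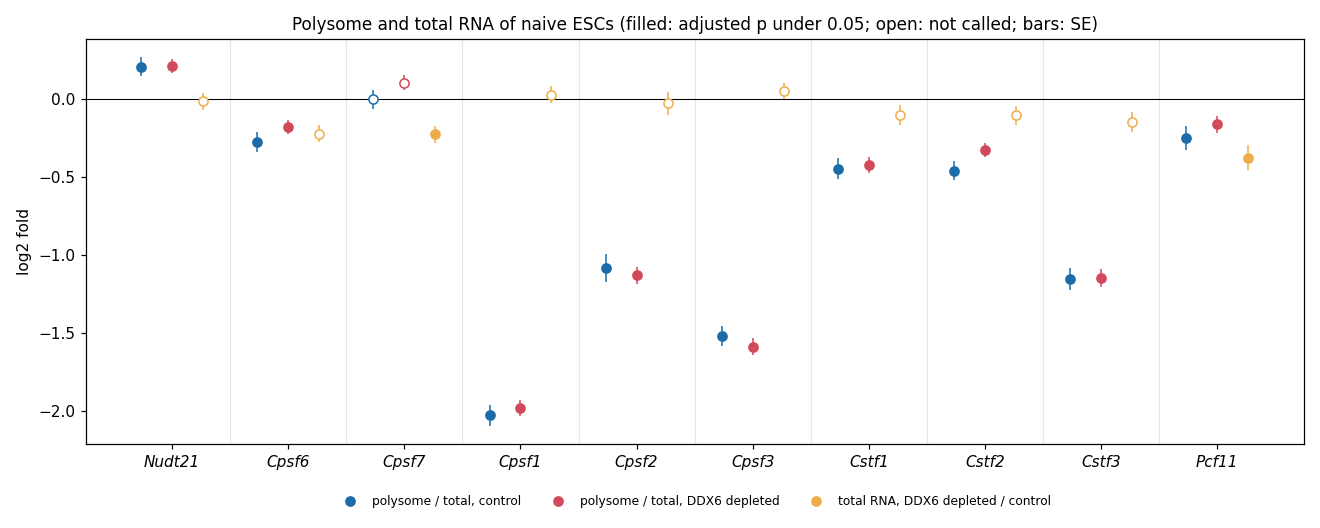
Log2 fold (y axis) of polysome-bound over total RNA in control and DDX6-depleted naive ES cells, and of total RNA in depleted over control cells, for each gene. Points are edgeR estimates from 3 libraries per group with bars of 1 SE, and filled points were called at an adjusted p under 0.05. Control and depleted occupancies lie side by side from 0.21 for Nudt21 to about -2 for Cpsf1.

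After DDX6 depletion 9 members were again called between polysomes and total RNA after TMM scaling, against 50.9% of 15638 tested genes (24.0% higher and 26.8% lower). Cpsf1 stood at 40.4, 41.2 and 38.2 CPM against 142, 139 and 137 CPM (log2 -1.98 ± 0.05), Cpsf3 had -1.59 ± 0.06, Cstf3 -1.15 ± 0.06 and Nudt21 0.21 ± 0.04. Pcf11, at -0.16 ± 0.06, lost its call without replicate 1 or 2 of the depleted polysomes (-0.14 and -0.15), without replicate 3 of the depleted total RNA (-0.11) and with all groups in a single fit (adjusted p = 0.0682). Cpsf7 (0.11 ± 0.05) was called without replicate 1 of the depleted polysomes (0.12) or replicate 3 of the depleted total RNA (0.13), with filterByExpr (adjusted p = 0.043) and with the replicate block (adjusted p = 0.0493). The calls of Pcf11 and Cpsf6 (-0.18 ± 0.05) depended on the scale, since by mean CPM their log2 ratios were 0.03 and 0.00. The change in occupancy was called for 0 of 10 members and for 0 of 16345 genes (0.00%). An unadjusted p under 0.05 was reached by 0 members and by 844 genes (5.16%), and DESeq2 called 4 genes. Member changes lay between -0.07 ± 0.08 (Cpsf3) and 0.13 ± 0.08 (Cstf2).

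In total RNA 2 members were lower after DDX6 depletion, against 3.31% of 15380 tested genes (1.24% higher and 2.07% lower). Pcf11 stood at 81.1, 78.0 and 66.1 CPM in control and 53.9, 57.1 and 62.3 CPM in depleted cells (log2 -0.38 ± 0.08, adjusted p = 0.0271), and 7.05% of tested genes had a lower value. Cpsf7 stood at 86.6, 86.6 and 84.3 CPM against 72.4, 71.7 and 76.0 CPM (-0.23 ± 0.06, adjusted p = 0.0451). Neither gene's groups overlapped. Both calls were lost with the replicate block (adjusted p = 0.097 and 0.177) and without any 1 of the libraries except replicate 3 of the control total RNA, with log2 values of -0.43 to -0.32 for Pcf11 and -0.25 to -0.21 for Cpsf7. Without that replicate Cpsf6 (-0.26), Cstf2 (-0.14) and Cstf3 (-0.19) were called too. The other 8 members had log2 values between -0.22 (Cpsf6) and 0.05 (Cpsf3).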

How the data were processed

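For P-body and cytoplasm libraries the authors aligned Smart-seq reads to mm10 with hisat2 and deposited featureCounts counts per refGene gene, in part estimated counts, with 17.6% to 25.7% of values not whole. The sources used here do not say how shared reads were split. Polysome and total libraries were deposited by the authors in estimated (expected) counts from salmon (nf-core, mm10), and Ago2 KO libraries in estimated counts from salmon by Ensembl gene (mm10 per the labels). Expected counts were rounded. The deposited tables of 10 author comparisons (log2 fold changes and p-values) and 0 per-sample columns were left unused.

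Each of 19 comparisons was fitted across all genes with edgeR 4.0.16 in R 4.3.3, scaled by TMM, with group as the only term, for genes with at least 10 reads over the libraries of the fit. Genes were called at a two-sided Benjamini-Hochberg adjusted p under 0.05, and differences in enrichment or occupancy were interaction contrasts. Fold changes use TMM-scaled totals, while CPM values use library totals, and the 2 scales differed by up to 0.25 in log2 (median over members) and in sign for 2 called values, both in depleted occupancy. SEs derive from the test statistic. DESeq2 1.42.0, its size factors in edgeR, filterByExpr, no filter, a term for replicate number, a joint fit of every group in the table (called a single fit) and leaving out each library were alternatives. With 1 library left in a group, that library is assumed to vary like the others. The fit was tested on simulated counts.

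All 10 members were named in every comparison. Lists of 10 other core and 9 associated factors were counted, with at most 3 called genes per direction named, and likeness to Nudt21 used log2(CPM + 1) of genes with a mean of at least 10 CPM, not all of which are reported here. Members and lists were chosen with earlier results of these data known. Annotation was GENCODE M21 (GRCm38). The study calls the replicates biological, and p-values measure the spread between these libraries. Replicates of every group differed by more than sampling noise, and none were merged. Plots were drawn with matplotlib.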

Additional observations from a re-analysis of the deposited data

Results flagged for a closer look

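The enrichment of 12 gene and contrast pairs was called different between cell types by the interaction test, and these results, all described above, are repeated here as values in log2 units. Primed minus naive enrichment was -1.13 for Cpsf6, -1.12 for Cpsf2, -0.51 for Cstf2, -0.41 for Cstf3 and -1.03 for Pcf11. MEF minus naive enrichment was 1.35 for Nudt21, -1.14 for Cpsf6, -1.72 for Cpsf2, -1.22 for Cstf2, -1.52 for Cstf3 and -1.57 for Pcf11. Day 3 control minus MEF enrichment was 0.996 for Cpsf2. The first 2 sets share the naive libraries and the last 2 the MEF libraries.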

How the results depend on the processing

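No called member changed direction under the alternatives fitted. By ratios of mean CPM, Cpsf6 and Pcf11 in depleted occupancy, both called lower, had log2 values of 0.00 and 0.03, a comparison chosen after seeing the data and not tested. Of 1130 alternative values other than leave-one-out, 1092 kept their side of the threshold, 27 gained a call and 11 lost one, and of 1060 leave-one-out values 958, 50 and 52 did so. Among values not called, 15 and 63 changed sign. The number of members called moved by over 1.5 times as follows. With all groups in a single fit it was 1 in day 3 control enrichment (0), 1 in knockdown enrichment (2), 5 in the knockdown P-body fraction (3), 5 in primed against naive cytoplasm (2) and 3 in day 3 against MEF enrichment (1), with the count of the reported fit in parentheses. DESeq2 gave 3 for the last and 2 for Ago2 KO enrichment (0), and no filter gave 2 for each. In the procedure the paper describes, every sorted sample had a matching cytoplasm and every gradient a matching total RNA. The labels share replicate numbers but do not say whether equal numbers mark such a match. The reported fits had group as the only term and left any match unused. Correlations of same-numbered deviations ran from -0.40 to 0.60. The value of 0.60 was that of Ago2 KO enrichment, where the replicate block called 4178 genes against 1095 in the reported fit. With the replicate block 3 members were called in primed against naive enrichment (5), 2 in Ago2 KO enrichment (0) and 0 in DDX6-depleted total RNA (2).

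Without 1 library the counts ran from 0 to 6 in day 3 control enrichment, 0 to 2 in knockdown enrichment, 3 to 5 in knockdown P-bodies, 0 to 2 in the change of enrichment on knockdown, 0 to 6 in primed against naive cytoplasm, 3 to 7 in primed against naive enrichment, 0 to 4 in day 3 against MEF enrichment, 0 to 2 in Ago2 KO enrichment and 0 to 5 in DDX6-depleted total RNA. It ran from 4 to 8 in naive, 3 to 4 in primed and 4 to 6 in MEF enrichment and from 7 to 10 in knockdown cytoplasm. The libraries are named above, and the cause was not tested. The share of all tested genes called in these fits is not given here, so the counts are not read as results about the members.

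Over all genes the counts of calls moved by over 1.5 times for day 3 control enrichment (102, with 2083 by DESeq2, 202 by filterByExpr, 1940 with no filter, 802 with the block and 3308 in a single fit), Ago2 KO enrichment (1095, with 716 by DESeq2 size factors, 1713 by DESeq2, 2643 with no filter and 4178 with the block) and DDX6-depleted total RNA (509, with 810, 863, 82 and 1138 by DESeq2, no filter, block and single fit). A single fit also gave 5128 in primed enrichment (8209), 2100 in knockdown enrichment (3501), 4877 in knockdown cytoplasm (7934) and 5887 in knockdown P-bodies (2908). The change of enrichment on knockdown had 2 calls, 27 by DESeq2 and 62 with no filter, and the change of occupancy 0, with 4, 16 and 6 by DESeq2, no filter and block. The share of higher calls moved from 30.4% to 44.3% with DESeq2 in day 3 control and from 83.9% to 70.7% in Ago2 KO enrichment, and from 45.1% to 34.8% with filterByExpr in primed against naive enrichment.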
